A study of Homo sapiens with 18 samples.

Results

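A set of 38 genes for DNA repair, the Fanconi anaemia pathway and SLFN11 was followed in 3 cell lines of Ewing sarcoma, a bone and soft tissue tumour. Members were the rows carrying the 38 symbols, of 58336 gene identifiers in the tables, and all 38 had a row. They comprised 15 genes of homologous recombination, 11 Fanconi genes, 4 checkpoint kinases, 2 PARP enzymes, 4 genes of end joining, the mismatch repair gene MSH6, and SLFN11. TC-32, TC-71 and A673 are established lines driven by EWSR1::FLI1, a fusion of a transcriptional activator with an ETS transcription factor. Cells of each line were transfected with 20 nM of a small interfering RNA (siRNA) against FLI1 (siFLI1), used to deplete the fusion, or with 20 nM of a negative control (siNeg). Each of the 6 groups held 3 libraries. Every library was of transfected cells, with no untransfected library among them. TC-32 and TC-71 grew in RPMI medium and A673 in DMEM. Column names give 48 h for TC-32 and TC-71 and no time for A673, and the line of the TC-32 and TC-71 libraries rests on the name of each table. The labels do not say that the 3 libraries of a group came from separate cultures, so p-values measure only the spread between these samples, which may be technical.

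Homologous recombination repairs broken DNA from the sister copy: nucleases resect the break, the BRCA proteins prepare the single-stranded DNA for strand exchange, and further factors such as the RAD54 translocases assist it. The Fanconi pathway unhooks crosslinks between strands and then hands the break to recombination, and many genes of both pathways are transcribed mainly in cells that are preparing or carrying out DNA replication. Non-homologous end joining, in which the Ku proteins hold the ends, works through the cell cycle, and mismatch repair corrects replication errors. SLFN11 blocks stalled replication forks, is a known ETS target in Ewing sarcoma, and is known for sensitising cells to PARP inhibitors, which trap PARP1 on DNA.

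The promoters were read first, because the fusion binds GGAA motifs and the E2F factors control many replication-linked genes. RefSeq (GRCh38.p14) gave a promoter of 250 bases before and 50 bases after the first listed start for 34 of the 38 members, all but NBN, RAD54B, FANCI and XRCC5. The core GGAA occurred on either strand in 34 of 34 member promoters and in 95.5% of the 27305 promoters in the table, so nearly every promoter holds it. An E2F motif, searched on both strands with the letters TTTGGCG, with TTTCGCG, with TTTCCCG or with TTTGCCG, occurred in 12 of 34 (35.3%) against 8.69% of all promoters and 13.1% of the 9720 promoters found for genes tested in all 3 lines. TTTCCCG holds TTCC, the reverse of GGAA, so these searches overlap. By group, the E2F motif occurred in 7 of 23 promoters of homologous recombination and Fanconi genes and in 3 of 4 of end joining and mismatch repair genes. The cell cycle element TTTGAA occurred in 3 of 34 member promoters, in 15.4% of all promoters and in 9.66% of those of genes tested in all 3 lines. TTTAAA occurred in 2 of 34, in 12.3% of all and in 7.53% of those tested.
The 200 bases before the start follow for 6 members, written along the gene's own strand, with positions counted back from the start. SLFN11 and PARP1 are the pair compared, and RAD54L had the second largest mean fall over the lines, after EXO1. FANCA, FANCF and RAD50 share an E2F motif but differed in fold change. For SLFN11 (chr17:35373622-35373821, minus strand) and RAD54L (chr1:46247488-46247687, plus strand) capitals mark GGAA or TTCC. For PARP1 (chr1:226408094-226408293, minus strand), FANCA (chr16:89816648-89816847, minus strand), FANCF (chr11:22625824-22626023, minus strand) and RAD50 (chr5:132556777-132556976, plus strand) capitals mark the E2F match. GENCODE 44 draws longer models of every one of these genes except FANCF over part or all of its window.
SLFN11: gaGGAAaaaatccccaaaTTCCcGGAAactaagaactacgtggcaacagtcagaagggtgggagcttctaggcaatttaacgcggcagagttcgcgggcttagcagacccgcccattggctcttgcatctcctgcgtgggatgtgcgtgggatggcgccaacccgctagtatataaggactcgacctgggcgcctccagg
RAD54L: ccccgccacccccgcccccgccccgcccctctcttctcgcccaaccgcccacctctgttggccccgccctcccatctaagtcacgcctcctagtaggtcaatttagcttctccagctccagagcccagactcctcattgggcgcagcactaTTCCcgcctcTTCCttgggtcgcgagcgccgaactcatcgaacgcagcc
PARP1: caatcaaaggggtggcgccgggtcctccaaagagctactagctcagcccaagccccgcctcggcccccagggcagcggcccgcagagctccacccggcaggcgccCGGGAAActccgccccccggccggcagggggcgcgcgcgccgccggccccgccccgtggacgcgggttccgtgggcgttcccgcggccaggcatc
FANCA: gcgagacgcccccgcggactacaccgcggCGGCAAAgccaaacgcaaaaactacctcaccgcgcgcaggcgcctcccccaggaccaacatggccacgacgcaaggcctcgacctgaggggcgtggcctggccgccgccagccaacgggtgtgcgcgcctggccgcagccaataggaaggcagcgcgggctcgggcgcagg
FANCF: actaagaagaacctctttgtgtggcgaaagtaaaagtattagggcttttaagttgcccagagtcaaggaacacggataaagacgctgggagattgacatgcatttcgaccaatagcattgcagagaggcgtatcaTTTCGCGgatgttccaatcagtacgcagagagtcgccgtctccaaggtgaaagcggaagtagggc
RAD50: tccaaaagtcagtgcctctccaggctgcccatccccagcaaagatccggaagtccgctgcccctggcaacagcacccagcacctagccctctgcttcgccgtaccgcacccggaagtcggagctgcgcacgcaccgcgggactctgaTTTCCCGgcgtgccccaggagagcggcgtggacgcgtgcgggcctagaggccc
The SLFN11 window held 3 GGAA cores, the first at -198 and the last at -177, and the RAD54L window held 2, at -49 and -39. The single E2F match began at -95 in PARP1, -171 in FANCA, -65 in FANCF and -53 in RAD50. A match describes letters and not a bound site. In these lines FANCA fell while FANCF, with its E2F match nearer the start, was not called lower in any line. EXO1, XRCC2 and FANCD2, which fell in every line, also hold the motif. The ranges overlapped: in TC-32, log2 fold changes ran from -4.09 to 0.19 with the motif and from -3.89 to 0.33 without it. Median log2 fold changes were smaller in size with the motif than without it. They were -1.17 against -1.83 in TC-32, -0.55 against -1.29 in TC-71 and -0.39 against -0.66 in A673. These medians cover 12 promoters with and 22 without the motif and were not tested.

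TC-32 libraries held 24102487 to 33669271 counts, TC-71 libraries 19685354 to 37234528 and A673 libraries 114564479 to 120993595, and the typical biological coefficient of variation was between 5.16% and 5.53%. FLI1, the target, was left at 48.9% (TC-32), 35.9% (TC-71) and 23.6% (A673) of its siNeg level, counting fused and unfused transcript alike. Of 6 Ewing sarcoma markers, all were detected in each group except CD99 in TC-71, listed at 0 in all libraries of that line. For that 0, absence of the transcript and the counting tool, which was another for TC-71, cannot be told apart. The summed level of the 6 markers was between 2005 and 2809.6 CPM in siNeg and between 485 and 1085 CPM in siFLI1. Lists for blood, endothelial, epithelial and muscle cells summed to between 0 and 6.92 CPM in any library, with the highest sums, of the muscle and epithelial lists, in TC-32 siFLI1, and their part in the results was not tested. CPM is a gene's count scaled to library depth by TMM, and a gene was called when its adjusted p was under 0.05 in edgeR's quasi-likelihood test. TC-71 was counted with another tool than the other lines, so tool and line cannot be told apart there.

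Most of the 38 genes fell when FLI1 was depleted, and they fell most in TC-32 and least in A673. In TC-32, 35 members were lower and 1 was higher, with a median log2 fold change of -1.78. In TC-71, 34 were lower and 1 was higher, with a median of -1.18. In A673, 30 were lower and 4 were higher, with a median of -0.57. The response across the transcriptome was wide: calls in either direction made up 81.3% of 16208 genes tested (TC-32), 71.9% of 17085 (TC-71) and 71% of 18427 (A673), with lower calls at 40.1%, 35% and 35% and higher calls at 41.3%, 36.8% and 36%. The median of all genes was 0.022, 0.018 and -0.00056. In A673, 50.7% of the calls were higher with TMM and 40.9% with library size alone, a scaling that moved the median of all genes by -0.11. Bulk libraries cannot tell fewer cells of one kind from less RNA per cell.

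A fall of at least 1.5-fold was called for 33 (TC-32), 27 (TC-71) and 18 (A673) members, where 25.9%, 17.5% and 17.1% of all genes passed the same rule. The siRNA groups did not overlap for 36, 35 and 32 members, against 82.5%, 73.8% and 73.6% of all genes. Called lower in all 3 lines were 30 members, and the other 8 were ATM, ATR, FANCF, LIG4, NBN, PALB2, XRCC5 and XRCC6. The call was higher in at least 1 line for ATM, FANCF, LIG4 and NBN. No share of all genes is given here for calls combined over lines, so these counts have no background beside them. NBN alone was called in opposite directions, lower in TC-32 and higher in A673.

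**Figure D1:**
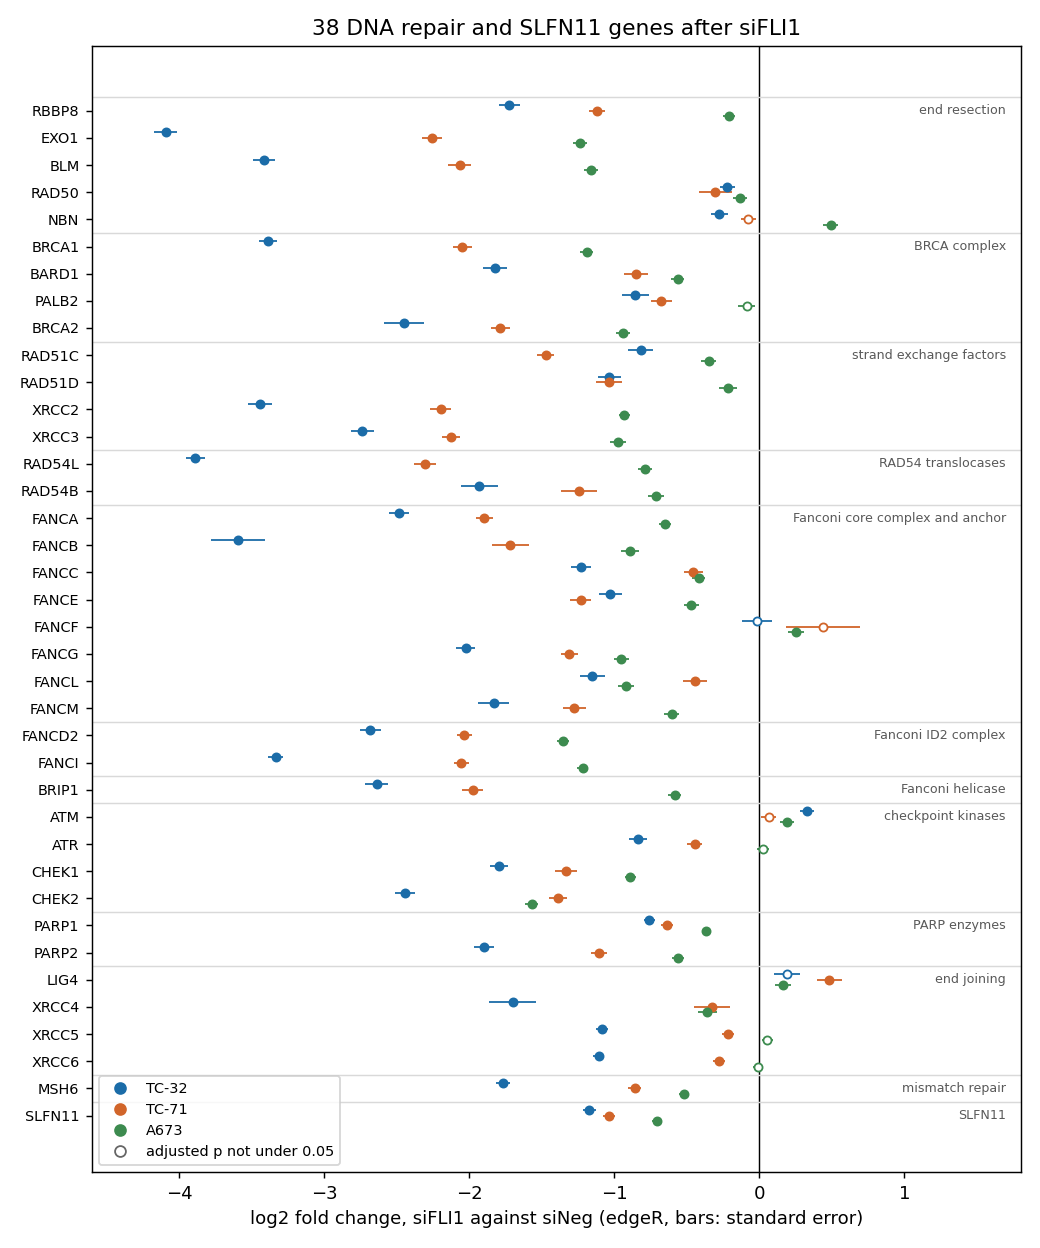
Log2 fold change of siFLI1 against siNeg (horizontal axis) for each of the 38 genes (vertical axis, by role), with 1 point per line, bars for the standard error and open points for an adjusted p not under 0.05. EXO1 in TC-32 lies farthest to the left at -4.09, and the points of NBN, FANCF, ATM, LIG4, XRCC5, ATR and XRCC6 lie near or above 0 in A673, with NBN highest at 0.49.

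The interaction of siRNA and line was past the threshold for 33 members between TC-32 and A673, for 32 between TC-32 and TC-71 and for 33 between A673 and TC-71. Over all 19591 genes in that model, 62.1%, 53.6% and 51.7% differed. For 28 of the 38, TC-32 had the lowest fold change, TC-71 the middle one and A673 the highest. ATM, FANCE, RAD50, RAD51C and RAD51D instead had a lower fold change in TC-71 than in TC-32, a difference that passed the interaction test for ATM and RAD51C and not for the other 3. The fold changes of the 38 genes correlated across lines with r = 0.90 for TC-32 and TC-71, 0.82 for TC-32 and A673, and 0.82 for A673 and TC-71, a description over genes that share libraries. Over all genes tested, the lower quartile of log2 fold change was -0.63 (TC-32), -0.42 (TC-71) and -0.39 (A673). The upper quartile was 0.85, 0.54 and 0.46, so fold changes of all genes also spread most in TC-32 and least in A673. The share of all genes with the order of the 28 members, and the correlation over all genes, are not given here. The line with the steepest falls, TC-32, was the one with the largest share of FLI1 left. Medium, transfection, depth and, for TC-71, the counting tool also differed or may have differed between lines, and their part was not tested.

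Among end resection genes, EXO1 and BLM fell in all 3 lines, while of the break sensors RAD50 had small falls and NBN was lower in TC-32 and higher in A673. EXO1, the nuclease that extends resected ends, had the largest mean fall of all members. EXO1 measured 84.4, 87.8 and 88.3 CPM in the siNeg libraries of TC-32 and 5.56, 4.31 and 5.51 CPM in the siFLI1 libraries, a change of -4.09 in log2 units (± 0.0790 SE, edgeR adjusted p = 1.04e-23). In TC-71, EXO1 gave 80.95, 86.5 and 82.9 CPM in the siNeg libraries and 20.2, 16.1 and 16.4 CPM in the siFLI1 libraries, a change of -2.26 in log2 units (± 0.0691 SE, edgeR adjusted p = 2.21e-21). A673 EXO1 levels were 40.9, 40.8 and 39.3 CPM in the siNeg libraries and 17.9, 17.1 and 16.3 CPM in the siFLI1 libraries, a change of -1.24 in log2 units (± 0.0467 SE, edgeR adjusted p = 7.40e-12). In every line all siFLI1 libraries lay below all siNeg libraries, and the remaining level in TC-32 was 5.90% of siNeg. BLM, the helicase of the dissolvasome, had log2 fold changes of -3.42 (TC-32), -2.07 (TC-71) and -1.16 (A673). RBBP8, which encodes the resection starter CtIP, had -1.72, -1.12 and -0.21 in the same order, and all 6 of these values passed the test.

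NBN and RAD50 encode subunits of the MRN complex, which senses breaks and recruits ATM. NBN measured 53.2, 53.3 and 49.6 CPM in the siNeg libraries of TC-32 and 45.9, 40.04 and 43.1 CPM in the siFLI1 libraries, a change of -0.28 in log2 units (± 0.0607 SE, edgeR adjusted p = 2.11e-04). In TC-71, NBN gave 106, 109 and 98.1 CPM in the siNeg libraries and 92.9, 98.2 and 105 CPM in the siFLI1 libraries, a change of -0.076 in log2 units (± 0.0518 SE, edgeR adjusted p = 0.190). A673 NBN levels were 44.7, 49.9 and 48.4 CPM in the siNeg libraries and 71.5, 63.5 and 66.2 CPM in the siFLI1 libraries, a change of 0.49 in log2 units (± 0.0522 SE, edgeR adjusted p = 8.87e-07). The NBN groups separated downward in TC-32 and upward in A673, and overlapped in TC-71. Without siNeg replicate 3 or without siFLI1 replicate 3 in TC-71, NBN was called lower there, at -0.13 and -0.12. RAD50 had log2 fold changes of -0.22 (TC-32), -0.30 (TC-71) and -0.13 (A673) (edgeR adjusted p = 5.14e-04, 0.0180 and 0.0188). Its call was lost without siNeg or siFLI1 replicate 3 in TC-71, where 0.0935 was the larger adjusted p, and in A673 without siNeg replicate 2 or siFLI1 replicate 2 or 3. RAD50 stood at 7.29 CPM in TC-71 siNeg against 71.6 in TC-32 and 109.8 in A673, and 91% of its transcript bases lie in another annotated gene on the same strand, so its level depends on how shared reads were counted.

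**Figure D2:**
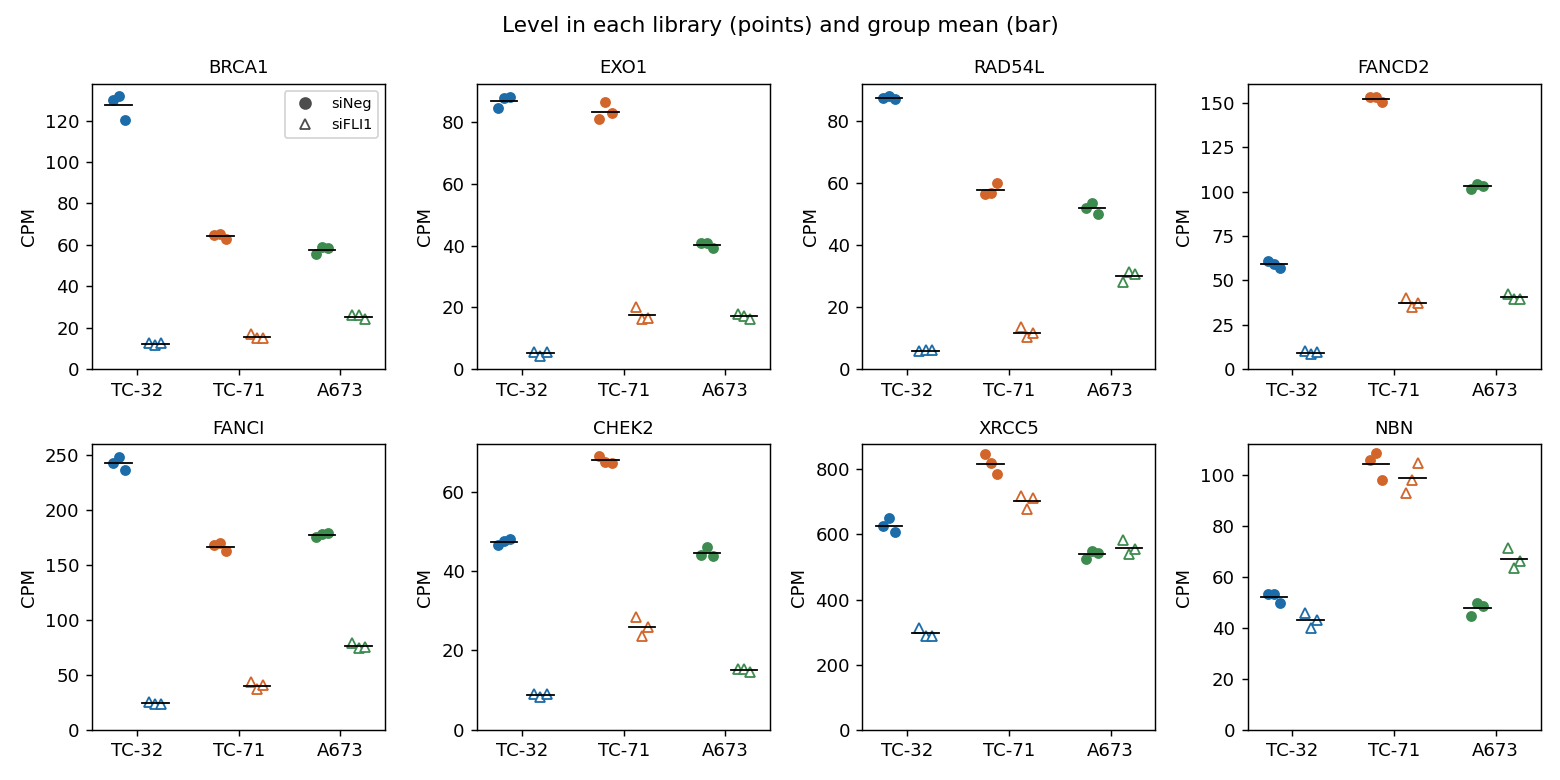
CPM (vertical axis, from 0) of 8 genes in each library, with siNeg as filled circles, siFLI1 as open triangles and a bar at the mean of each group of 3. The groups are apart in every line for BRCA1, EXO1, RAD54L, FANCD2, FANCI and CHEK2, while XRCC5 overlaps in A673, and NBN is lower in TC-32 and higher in A673.

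All 4 genes of the BRCA complex fell in TC-32 and TC-71, where 40.1% and 35% of all genes were called lower. BRCA1, the ubiquitin ligase that promotes resection, fell most of the 4. BRCA1 measured 129.9, 132 and 120.4 CPM in the siNeg libraries of TC-32 and 12.6, 11.5 and 12.5 CPM in the siFLI1 libraries, a change of -3.39 in log2 units (± 0.0629 SE, edgeR adjusted p = 4.93e-24). In TC-71, BRCA1 gave 64.7, 65.2 and 62.7 CPM in the siNeg libraries and 16.8, 15.03 and 14.9 CPM in the siFLI1 libraries, a change of -2.05 in log2 units (± 0.0646 SE, edgeR adjusted p = 6.76e-22). A673 BRCA1 levels were 55.5, 58.8 and 58.7 CPM in the siNeg libraries and 25.9, 25.9 and 23.95 CPM in the siFLI1 libraries, a change of -1.19 in log2 units (± 0.0460 SE, edgeR adjusted p = 9.98e-12). Its libraries did not overlap in any line. BRCA2, which acts on the resected single-stranded DNA, was low in TC-32 to begin with. BRCA2 measured 9.42, 9.46 and 9.22 CPM in the siNeg libraries of TC-32 and 1.53, 1.75 and 1.83 CPM in the siFLI1 libraries (log2 fold change -2.45, edgeR adjusted p = 1.57e-14). In TC-71, BRCA2 gave 50.4, 56.7 and 51.3 CPM in the siNeg libraries and 15.8, 15.1 and 15.005 CPM in the siFLI1 libraries (log2 fold change -1.78, edgeR adjusted p = 5.65e-20). A673 BRCA2 levels were 72.3, 79.8 and 76.9 CPM in the siNeg libraries and 42.1, 39.5 and 38.004 CPM in the siFLI1 libraries (log2 fold change -0.94, edgeR adjusted p = 3.09e-10). All siFLI1 libraries again lay below all siNeg libraries, and the TC-32 value rests on 40 to 59 counts per siFLI1 library. BARD1, the partner of BRCA1, had -1.82, -0.85 and -0.56 in TC-32, TC-71 and A673. PALB2, the bridge between BRCA1 and BRCA2, had -0.86 and -0.68 in TC-32 and TC-71, and -0.088 in A673 (edgeR adjusted p = 0.191). With library size alone or without siFLI1 replicate 1, PALB2 was called lower in A673 as well, at -0.20 and -0.14.

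XRCC2, XRCC3, RAD51C and RAD51D, which act together in strand exchange, all fell in all 3 lines. XRCC2 had the largest mean fall of them. XRCC2 measured 54.3, 47.5 and 50.8 CPM in the siNeg libraries of TC-32 and 5.13, 4.54 and 4.398 CPM in the siFLI1 libraries (log2 fold change -3.44, edgeR adjusted p = 1.01e-21). In TC-71, XRCC2 gave 48.6, 52.5 and 48.2 CPM in the siNeg libraries and 11.4, 9.87 and 11.2 CPM in the siFLI1 libraries (log2 fold change -2.20, edgeR adjusted p = 2.21e-21). A673 XRCC2 levels were 49.3, 49.3 and 50.2 CPM in the siNeg libraries and 26.04, 25.7 and 26.3 CPM in the siFLI1 libraries (log2 fold change -0.93, edgeR adjusted p = 2.57e-11). Its siFLI1 levels in TC-32 were 9.23% of siNeg, and no groups overlapped. XRCC3 had log2 fold changes of -2.74 (TC-32), -2.13 (TC-71) and -0.97 (A673), with 34.2% of its transcript bases shared with KLC1 on the opposite strand. RAD51C had -0.82, -1.47 and -0.35 in that order, with a difference of 0.65 between TC-32 and TC-71 (edgeR interaction adjusted p = 3.46e-07), and RAD51D had -1.03, -1.04 and -0.22.

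Both RAD54 translocases, which drive strand exchange, fell in every line. RAD54L measured 87.4, 87.8 and 86.9 CPM in the siNeg libraries of TC-32 and 5.67, 5.97 and 6.02 CPM in the siFLI1 libraries (log2 fold change -3.89, edgeR adjusted p = 1.69e-24). In TC-71, RAD54L gave 56.4, 56.5 and 60.03 CPM in the siNeg libraries and 13.3, 10.3 and 11.5 CPM in the siFLI1 libraries (log2 fold change -2.30, edgeR adjusted p = 1.31e-21). A673 RAD54L levels were 51.99, 53.5 and 49.9 CPM in the siNeg libraries and 28.02, 31.3 and 30.5 CPM in the siFLI1 libraries (log2 fold change -0.79, edgeR adjusted p = 2.05e-09). RAD54L groups were apart in all lines, and 26.2% of its transcript bases are shared with LRRC41 on the opposite strand. RAD54B had log2 fold changes of -1.93 (TC-32), -1.24 (TC-71) and -0.71 (A673), but 65.5% of its transcript bases are shared with FSBP on the same strand, and its siNeg level in TC-71 was 9.21 CPM against 26.9 and 24.99 in TC-32 and A673.

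From the wider list of homologous recombination, the number lower was 19 of 22 for TC-32, 16 of 21 for TC-71 and 16 of 22 for A673, and 0, 2 and 2 were higher in the same order. Of all genes tested, 40.1%, 35% and 35% were lower and 41.3%, 36.8% and 36% higher. RAD51AP1, which assists strand exchange, had -3.67, -1.90 and -0.96, and EME1, a subunit of a resolvase nuclease, had -2.66, -2.23 and -1.10.

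The Fanconi core complex is the ubiquitin ligase of the pathway, and 7 of its 8 measured genes, FANCM as its DNA anchor included, were lower in all 3 lines. Lower calls within a line made up 40.1% (TC-32), 35% (TC-71) and 35% (A673) of all genes. No share of all genes is given here for calls combined over lines. FANCB had the largest mean fall of these 8 Fanconi genes. FANCB measured 9.84, 9.42 and 8.63 CPM in the siNeg libraries of TC-32 and 1.11, 0.505 and 0.744 CPM in the siFLI1 libraries (log2 fold change -3.59, edgeR adjusted p = 4.52e-15). In TC-71, FANCB gave 8.17, 9.53 and 8.19 CPM in the siNeg libraries and 2.66, 2.79 and 2.42 CPM in the siFLI1 libraries (log2 fold change -1.72, edgeR adjusted p = 7.57e-13). A673 FANCB levels were 15.02, 16.6 and 16.03 CPM in the siNeg libraries and 9.28, 7.96 and 8.44 CPM in the siFLI1 libraries (log2 fold change -0.89, edgeR adjusted p = 1.50e-08). No FANCB groups overlapped, but siFLI1 libraries of TC-32 held only 17 to 29 counts of it. FANCA had log2 fold changes of -2.48 (TC-32), -1.90 (TC-71) and -0.65 (A673), and FANCG had -2.02, -1.31 and -0.95 in the same order. FANCM had -1.83, -1.28 and -0.60, and FANCC had -1.23, -0.45 and -0.42. FANCE, the link to FANCD2, had -1.03, -1.23 and -0.47, and its TC-32 and TC-71 effects differed by 0.20 (edgeR interaction adjusted p = 0.0887). FANCL, the catalytic subunit, had -1.15, -0.44 and -0.92 and fell further in A673 than TC-71, the interaction being -0.52 (edgeR interaction adjusted p = 3.52e-05). FANCA and FANCL share 27.4% and 27.3% of their transcript bases with ZNF276 and VRK2 on the opposite strand.

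FANCF, the adaptor of the core complex, was the exception. FANCF measured 8.08, 8.29 and 10.1 CPM in the siNeg libraries of TC-32 and 8.89, 8.56 and 8.70 CPM in the siFLI1 libraries (log2 fold change -0.018, edgeR adjusted p = 0.878). In TC-71, FANCF gave 0.817, 1.72 and 1.04 CPM in the siNeg libraries and 1.39, 1.57 and 1.697 CPM in the siFLI1 libraries (log2 fold change 0.44, edgeR adjusted p = 0.120). A673 FANCF levels were 12.7, 14.2 and 14.5 CPM in the siNeg libraries and 16.3, 16.3 and 16.7 CPM in the siFLI1 libraries (log2 fold change 0.25, edgeR adjusted p = 0.00111). Only the A673 groups were apart, with every siFLI1 library above every siNeg library. The TC-32 value turned positive with library size alone, in the model of all 18 libraries and without siNeg replicate 3, at 0.026, 0.016 and 0.074. In TC-71, FANCF was near the detection limit, with 22 counts in the lowest siNeg library, and it was called higher at 0.73 without siNeg replicate 2 and at 0.50 in the model of all 18 libraries.

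FANCD2 and FANCI form the clamp that the core complex ubiquitinates. FANCD2 measured 61.1, 59.2 and 57.1 CPM in the siNeg libraries of TC-32 and 9.85, 8.35 and 9.58 CPM in the siFLI1 libraries, a change of -2.68 in log2 units (± 0.0725 SE, edgeR adjusted p = 7.75e-21). In TC-71, FANCD2 gave 153, 154 and 151 CPM in the siNeg libraries and 40.1, 34.8 and 37.1 CPM in the siFLI1 libraries, a change of -2.03 in log2 units (± 0.0529 SE, edgeR adjusted p = 6.42e-24). A673 FANCD2 levels were 102, 104 and 103 CPM in the siNeg libraries and 42.03, 39.3 and 39.7 CPM in the siFLI1 libraries, a change of -1.35 in log2 units (± 0.0399 SE, edgeR adjusted p = 4.68e-13). FANCI moved in parallel. FANCI measured 243, 248.7 and 237 CPM in the siNeg libraries of TC-32 and 25.5, 23.8 and 23.01 CPM in the siFLI1 libraries, a change of -3.33 in log2 units (± 0.0528 SE, edgeR adjusted p = 2.89e-25). In TC-71, FANCI gave 168, 169.9 and 163 CPM in the siNeg libraries and 43.3, 36.9 and 40.4 CPM in the siFLI1 libraries, a change of -2.05 in log2 units (± 0.0537 SE, edgeR adjusted p = 7.15e-24). A673 FANCI levels were 175, 178 and 179 CPM in the siNeg libraries and 79.2, 74.02 and 75.4 CPM in the siFLI1 libraries, a change of -1.22 in log2 units (± 0.0371 SE, edgeR adjusted p = 6.69e-13). For both genes every siFLI1 library lay below every siNeg library of its line. BRIP1, the Fanconi helicase that binds BRCA1, followed. BRIP1 measured 50.7, 48.2 and 45.5 CPM in the siNeg libraries of TC-32 and 8.70, 7.16 and 7.44 CPM in the siFLI1 libraries (log2 fold change -2.64, edgeR adjusted p = 6.81e-20). In TC-71, BRIP1 gave 47.9, 51.4 and 47.2 CPM in the siNeg libraries and 12.6, 11.7 and 12.8 CPM in the siFLI1 libraries (log2 fold change -1.98, edgeR adjusted p = 9.66e-21). A673 BRIP1 levels were 60.1, 62.97 and 62.01 CPM in the siNeg libraries and 43.6, 39.6 and 40.3 CPM in the siFLI1 libraries (log2 fold change -0.58, edgeR adjusted p = 2.47e-08). Its groups were also apart in each line.

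Of the wider Fanconi list, the number lower was 9 of 12 for TC-32, 8 of 12 for TC-71 and 10 of 12 for A673, and 0, 2 and 2 were higher in the same order. Lower calls took in 40.1%, 35% and 35% of all genes, and higher calls 41.3%, 36.8% and 36%. UBE2T, the conjugating enzyme of the core complex, had -2.97, -1.94 and -0.91. USP1, which removes ubiquitin from FANCD2, had -2.06, -1.22 and -0.56, and CENPX, a histone-fold partner of FANCM, had -2.30, -0.91 and -0.54.

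The checkpoint kinases split into the sensors ATM and ATR, which changed little or moderately, and the effectors CHEK1 and CHEK2, which fell in all lines. CHEK2 measured 46.6, 47.6 and 48.1 CPM in the siNeg libraries of TC-32 and 8.89, 8.26 and 9.03 CPM in the siFLI1 libraries, a change of -2.44 in log2 units (± 0.0708 SE, edgeR adjusted p = 3.15e-20). In TC-71, CHEK2 gave 68.9, 67.6 and 67.4 CPM in the siNeg libraries and 28.4, 23.6 and 25.996 CPM in the siFLI1 libraries, a change of -1.39 in log2 units (± 0.0620 SE, edgeR adjusted p = 3.25e-18). A673 CHEK2 levels were 43.97, 46.1 and 43.9 CPM in the siNeg libraries and 15.3, 15.3 and 14.5 CPM in the siFLI1 libraries, a change of -1.57 in log2 units (± 0.0452 SE, edgeR adjusted p = 3.61e-13). CHEK2 groups never overlapped, and it was the member with the largest fall in A673. CHEK1 had log2 fold changes of -1.79 (TC-32), -1.33 (TC-71) and -0.89 (A673), with 18.2% of its transcript bases shared with a gene on the opposite strand. ATR, the kinase of stalled forks, had -0.84 and -0.45 in TC-32 and TC-71, and in A673 0.024 (edgeR adjusted p = 0.618), which became -0.085 with library size alone and -0.0087 without siFLI1 replicate 1. ATM, the kinase of double-strand breaks, was higher at 0.33 in TC-32 and 0.19 in A673. ATM had 0.064 in TC-71 (edgeR adjusted p = 0.287), which became -0.0033 without siFLI1 replicate 3, and its A673 call was lost with library size alone (0.084). In the wider checkpoint list, the number lower was 12 of 12 for TC-32, 10 of 12 for TC-71 and 8 of 12 for A673, and 0, 1 and 2 were higher. The shares of all genes were 40.1%, 35% and 35% lower and 41.3%, 36.8% and 36% higher. CLSPN, the mediator between ATR and CHEK1, had -3.67, -2.06 and -0.96, and the fork protection partners TIMELESS and TIPIN had -2.33, -1.47 and -1.02 and -2.49, -1.70 and -0.45.

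In end joining, XRCC4 fell in all 3 lines, XRCC5 and XRCC6 fell in TC-32 and TC-71, and LIG4 was higher in TC-71 and A673. XRCC5 and XRCC6 encode the Ku subunits and had the highest siNeg levels of the 38 per kilobase of transcript after scaling to depth. XRCC5 measured 625, 651 and 607 CPM in the siNeg libraries of TC-32 and 313, 289 and 287 CPM in the siFLI1 libraries, a change of -1.08 in log2 units (± 0.0426 SE, edgeR adjusted p = 1.64e-17). In TC-71, XRCC5 gave 849, 818 and 785 CPM in the siNeg libraries and 717, 679 and 713 CPM in the siFLI1 libraries, a change of -0.22 in log2 units (± 0.0408 SE, edgeR adjusted p = 2.45e-05). A673 XRCC5 levels were 524, 549 and 543 CPM in the siNeg libraries and 584, 539.9 and 555 CPM in the siFLI1 libraries, a change of 0.055 in log2 units (± 0.0362 SE, edgeR adjusted p = 0.188). XRCC6 closely followed. XRCC6 measured 597, 628 and 597 CPM in the siNeg libraries of TC-32 and 288, 281 and 277 CPM in the siFLI1 libraries (log2 fold change -1.11, edgeR adjusted p = 1.85e-18). In TC-71, XRCC6 gave 765, 713 and 729 CPM in the siNeg libraries and 630.0, 589.9 and 600.2 CPM in the siFLI1 libraries (log2 fold change -0.28, edgeR adjusted p = 5.83e-07). A673 XRCC6 levels were 580.0, 584 and 569 CPM in the siNeg libraries and 585, 556 and 577 CPM in the siFLI1 libraries (log2 fold change -0.013, edgeR adjusted p = 0.741). The libraries of both genes were apart in TC-32 and TC-71 and overlapped in A673. With library size alone, XRCC5 in A673 turned to -0.054 and XRCC6 was called lower at -0.12. Without siFLI1 replicate 2, XRCC6 turned to 0.0100 and XRCC5 was called higher at 0.082.

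XRCC4, the scaffold of the ligase, had the largest mean fall of the 4 end joining members. XRCC4 measured 8.62, 9.01 and 7.07 CPM in the siNeg libraries of TC-32 and 3.41, 2.35 and 1.93 CPM in the siFLI1 libraries (log2 fold change -1.70, edgeR adjusted p = 2.20e-09). In TC-71, XRCC4 gave 7.72, 7.10 and 6.07 CPM in the siNeg libraries and 4.71, 5.70 and 6.06 CPM in the siFLI1 libraries (log2 fold change -0.33, edgeR adjusted p = 0.0203). A673 XRCC4 levels were 8.85, 9.41 and 9.56 CPM in the siNeg libraries and 7.30, 6.77 and 7.64 CPM in the siFLI1 libraries (log2 fold change -0.36, edgeR adjusted p = 2.12e-04). Its groups were apart in each line, but in TC-71 by a narrow margin, and its call there was lost without siNeg replicate 1 (-0.25), without siFLI1 replicate 1 (-0.23) and in the model of all 18 libraries (-0.28). LIG4, the ligase itself, had log2 fold changes of 0.19 (TC-32), 0.48 (TC-71) and 0.16 (A673) (edgeR adjusted p = 0.0516, 1.53e-05 and 0.0189). Its A673 groups overlapped, and the call there was lost without siNeg replicate 1 or 3, without siFLI1 replicate 1 or 3, and with library size alone. In TC-32 it was called higher with RLE factors (0.20), with library size alone (0.24), in the model of all 18 libraries (0.23) and without siFLI1 replicate 2 (0.28).

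MSH6, a mismatch recognition protein, was the only mismatch repair member. MSH6 measured 237, 250.3 and 228.9 CPM in the siNeg libraries of TC-32 and 74.1, 68.8 and 67.7 CPM in the siFLI1 libraries (log2 fold change -1.77, edgeR adjusted p = 1.56e-20). In TC-71, MSH6 gave 206, 199 and 197 CPM in the siNeg libraries and 109, 105 and 117 CPM in the siFLI1 libraries (log2 fold change -0.86, edgeR adjusted p = 3.27e-16). A673 MSH6 levels were 215, 220.1 and 219 CPM in the siNeg libraries and 158, 147 and 151 CPM in the siFLI1 libraries (log2 fold change -0.52, edgeR adjusted p = 8.53e-09). All siFLI1 libraries lay below all siNeg libraries, and 12.4% of its transcript bases are shared with FBXO11 on the opposite strand. Of the wider mismatch repair list, the number lower was 5 of 6 for TC-32, 5 of 6 for TC-71 and 5 of 6 for A673, and 1, 0 and 0 were higher. PMS1 had -0.69, -0.40 and -0.0027, the last value with an edgeR adjusted p of 0.960. In the wider end joining list, the number lower was 7 of 11 for TC-32, 6 of 10 for TC-71 and 7 of 11 for A673, and 4, 1 and 2 were higher. Beside both lists, all genes had 40.1%, 35% and 35% lower and 41.3%, 36.8% and 36% higher. PRKDC, the kinase recruited by Ku, had -1.80, -0.78 and -0.31. RIF1, which limits resection, had -1.65, -0.45 and -0.60, and PAXX, a Ku-binding factor, had -1.02, -0.93 and -0.58.

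Set side by side, the 26 homologous recombination and Fanconi genes had a lower median fold change than the 5 end joining and mismatch repair genes in each line. In TC-32, 25 of 26 were lower with a median log2 fold change of -1.98, against 4 of 5 with a median of -1.11. In TC-71, 24 of 26 were lower with a median of -1.39, against 4 of 5 with -0.28 and LIG4 higher. In A673, 23 of 26 were lower and 2 were higher with a median of -0.68, against 2 of 5 lower and 1 higher with -0.013. Lower calls covered 40.1% (TC-32), 35% (TC-71) and 35% (A673) of all genes, so the 2 of 5 in A673 lie near that share. The medians thus differed by -0.87, -1.11 and -0.67, over 5 genes on the smaller side. When the wider lists were added, giving 60 and 22 genes, the difference was -0.82, -0.74 and -0.32. These are descriptions of lists chosen with earlier results known, and no test was made.

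A list of 18 proliferation genes, among them MKI67, PCNA, the MCM helicase and E2F1, had lower medians than the repair genes. Its members were lower in 18 (TC-32), 18 (TC-71) and 17 (A673) cases, where 40.1%, 35% and 35% of all genes were lower. Their medians were -3.13, -1.87 and -0.92. Their summed level went from between 5097 and 5127 CPM in siNeg to between 585 and 621 CPM in siFLI1 in TC-32. TC-71 siNeg libraries had 4228 to 4323 CPM and siFLI1 libraries 1105 to 1293 CPM, and A673 libraries had 4389.6 to 4424 and 2316 to 2339 CPM. The 3 lines thus had the same order in this list as in the members. The part of proliferation in the fall of the repair genes was not tested.

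**Figure D3:**
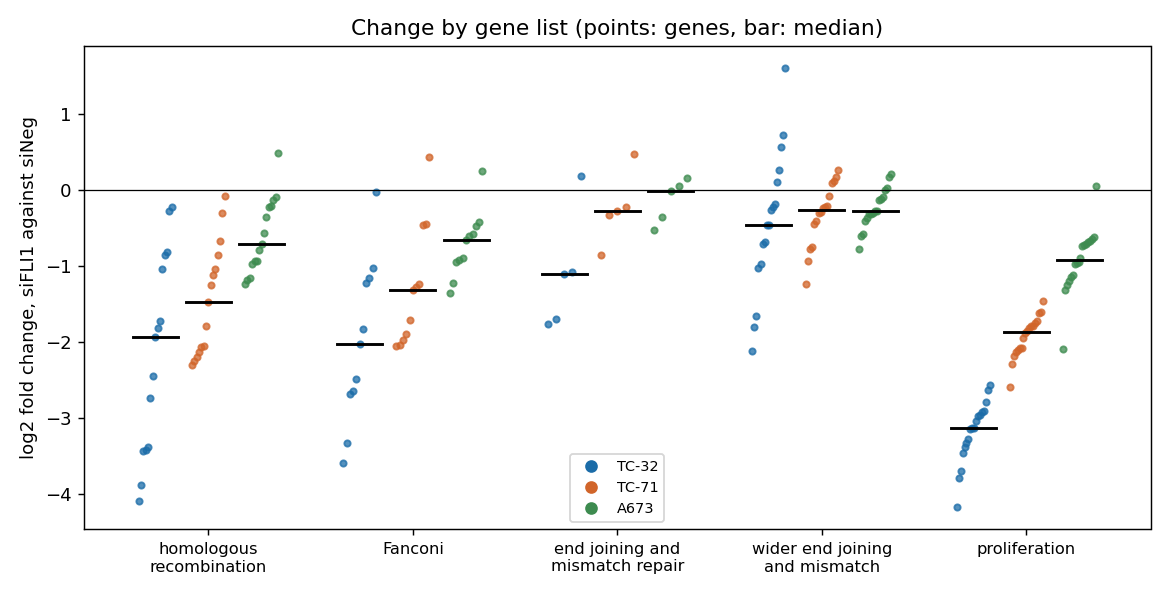
Log2 fold change of siFLI1 against siNeg (vertical axis) for the genes of each list (points, coloured by line), with a bar at each median. The wider end joining and mismatch list shown here excludes the members. Proliferation genes lie lowest in all 3 lines, with medians of -3.13, -1.87 and -0.92, and end joining and mismatch repair members lie nearest to 0 of the member lists.

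Among PARP enzymes, which attach ADP-ribose at DNA breaks, PARP2 had lower fold changes than PARP1 in each line, a difference that was not tested. PARP2 measured 47.1, 48.6 and 45.6 CPM in the siNeg libraries of TC-32 and 12.8, 12.4 and 12.7 CPM in the siFLI1 libraries (log2 fold change -1.90, edgeR adjusted p = 1.57e-18). In TC-71, PARP2 gave 93.6, 83.4 and 92.1 CPM in the siNeg libraries and 43.99, 40.2 and 41.3 CPM in the siFLI1 libraries (log2 fold change -1.10, edgeR adjusted p = 7.56e-17). A673 PARP2 levels were 54.3, 53.6 and 51.8 CPM in the siNeg libraries and 37.2, 35.3 and 35.8 CPM in the siFLI1 libraries (log2 fold change -0.56, edgeR adjusted p = 1.48e-08). PARP2 groups were apart in every line. PARP1, the main enzyme and the target of PARP inhibitors, remained abundant. PARP1 measured 546, 545 and 544 CPM in the siNeg libraries of TC-32 and 323, 323 and 319.7 CPM in the siFLI1 libraries, a change of -0.76 in log2 units (± 0.0371 SE, edgeR adjusted p = 1.37e-15). In TC-71, PARP1 gave 359, 353 and 366 CPM in the siNeg libraries and 239, 225 and 228.6 CPM in the siFLI1 libraries, a change of -0.64 in log2 units (± 0.0414 SE, edgeR adjusted p = 2.67e-14). A673 PARP1 levels were 498, 492 and 483 CPM in the siNeg libraries and 379.6, 379 and 383 CPM in the siFLI1 libraries, a change of -0.37 in log2 units (± 0.0307 SE, edgeR adjusted p = 6.47e-08). All PARP1 siFLI1 libraries lay below all siNeg libraries of the same line. In the wider PARP list, the number lower was 4 of 8 for TC-32, 5 of 8 for TC-71 and 3 of 8 for A673, and 3, 3 and 3 were higher. Among all genes 40.1%, 35% and 35% were lower and 41.3%, 36.8% and 36% higher. The A673 counts of this list lie near those shares. POLQ, the polymerase of microhomology-mediated joining, had -3.26, -2.19 and -0.91. PARP3 had 0.48, 1.31 and 0.63, and the tankyrase TNKS2 had 0.80, 0.45 and 0.40, each higher in all 3 lines.

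SLFN11 (ENSG00000172716.16) is annotated by GENCODE 44 (GRCh38) at chr17:35350305-35373701, minus strand, and PARP1 (ENSG00000143799.12) at chr1:226360210-226408154, minus strand. Neither shares transcript bases with another gene. SLFN11 measured 304, 300.2 and 297 CPM in the siNeg libraries of TC-32 and 144, 131 and 126 CPM in the siFLI1 libraries, a change of -1.17 in log2 units (± 0.0472 SE, edgeR adjusted p = 2.58e-17). In TC-71, SLFN11 gave 219, 219 and 228.6 CPM in the siNeg libraries and 109, 106 and 110.0 CPM in the siFLI1 libraries, a change of -1.04 in log2 units (± 0.0436 SE, edgeR adjusted p = 7.28e-19). A673 SLFN11 levels were 176, 179.7 and 174 CPM in the siNeg libraries and 111, 106 and 107 CPM in the siFLI1 libraries, a change of -0.71 in log2 units (± 0.0344 SE, edgeR adjusted p = 1.39e-10). SLFN11 groups were widely apart in each line, and its level in the siFLI1 libraries was 44.4% (TC-32), 48.7% (TC-71) and 61.2% (A673) of siNeg. The corresponding PARP1 shares were 59.1%, 64.4% and 77.5%.

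SLFN11 fell further than PARP1 when the 3 lines were averaged, and the direction was the same in each line. The log2 ratio of SLFN11 to PARP1, each with 0.5 CPM added, went from -0.86 ± 0.0133 to -1.27 ± 0.0920 in TC-32 (SD, n = 3). TC-71 had -0.69 ± 0.0162 in siNeg and -1.09 ± 0.0401 in siFLI1, and A673 had -1.47 ± 0.0223 and -1.81 ± 0.0309. The differences were -0.41, -0.40 and -0.34, each with a two-sided exact permutation p of 0.1, the smallest that 3 against 3 libraries allow. Averaged over the 3 lines, with labels permuted within each line, the difference was -0.38 (two-sided exact permutation p = 0.00025, the smallest of 8000 regroupings). Every siFLI1 library had a lower ratio than every siNeg library of its line. Per kilobase of transcript, PARP1 exceeded SLFN11 by 2.34-fold in TC-32 siNeg, 2.09-fold in TC-71 and 3.59-fold in A673, and after siFLI1 by 3.12-, 2.76- and 4.54-fold.

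**Figure D4:**
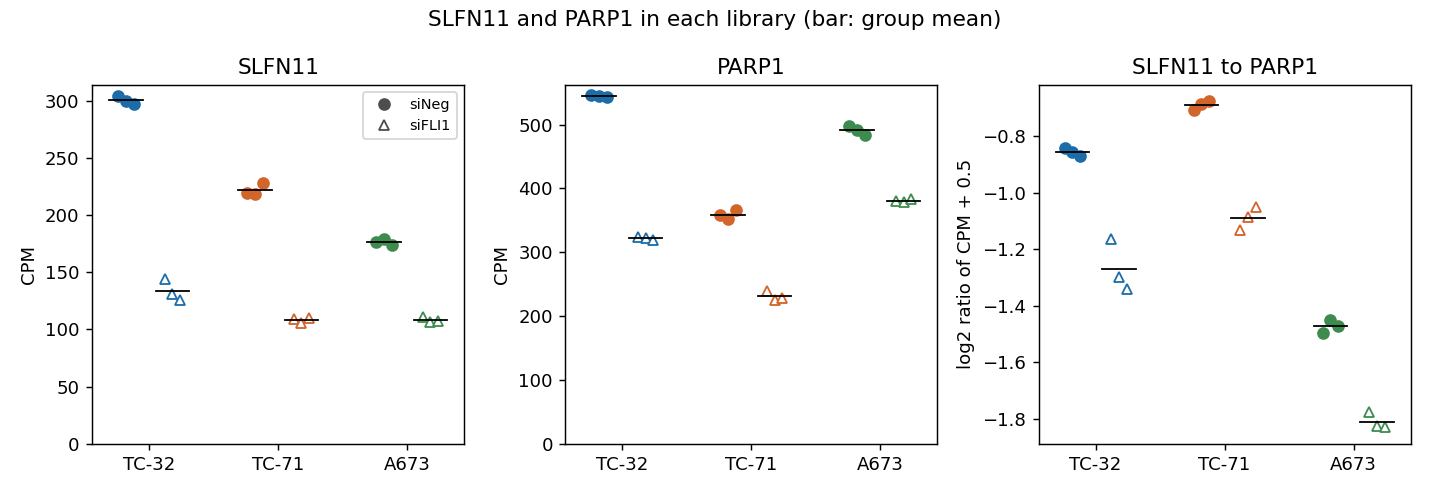
CPM of SLFN11 and of PARP1 (left and middle axes, from 0) and the log2 ratio of SLFN11 to PARP1 (right axis) in each library, with filled circles for siNeg, open triangles for siFLI1 and bars for means. In every line the siFLI1 ratios lie below the siNeg ratios, by -0.41, -0.40 and -0.34 on average.

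The Schlafen genes near SLFN11 did not move together. SLFN12L had log2 fold changes of -3.17 (TC-32), -3.08 (TC-71) and -1.17 (A673), and SLFN13 had -0.99, -2.11 and -0.84 in that order. SLFN5 went the other way, with 3.36, 1.16 and 0.80, from 12.98 ± 0.230 to 133 ± 10.8 CPM in TC-32 (SD, n = 3). All 9 of these values passed the test.

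Per kilobase of transcript in siNeg libraries, XRCC6, XRCC5 and PARP1 ranked 1, 2 and 3 of the 38 in each line. XRCC6 stood at 286, 347 and 272 CPM per kilobase in TC-32, TC-71 and A673. SLFN11 ranked 4, 6 and 6 with 58.5, 43.2 and 34.4. The lowest was BRCA2 in TC-32 (0.784), FANCF in TC-71 (0.363) and RAD51D in A673 (1.27). BRCA1, at 17.97 in TC-32, was above its 9.06 in TC-71 and 8.14 in A673, while BRCA2 was highest in A673 at 6.39. Levels set across lines come from tables quantified separately.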

How the data were processed

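Messenger RNA was sequenced in 18 libraries made with a stranded kit, as the labels' protocols state. The authors deposited expected counts for TC-32 and A673, which the table names attribute to RSEM, and counts for TC-71, attributed to Subread; neither is scaled to depth. The submitters' processing notes name cutadapt 4.4, STAR 2.7.3, featureCounts, Subread 2.0.3, limma 3.38.3 and the build GRCh38 (hg38), with no role or order. Annotation release, strand setting and filters are not given in the sources used here, so reads of antisense partners may not be told apart.

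Columns were mapped to samples by their names and tables, and rows of the same gene identifier were summed, giving 58336 identifiers. Expected counts were rounded. The fit of each line used its own 6 libraries in edgeR 4.0.16 under R 4.3.3 (filterByExpr, TMM, robust quasi-likelihood F-test), with Benjamini-Hochberg adjustment over all genes tested and a threshold of 0.05. Every adjusted p is from this procedure unless another is named. Lines were compared by interaction contrasts in one model of all 18 libraries. The SLFN11 to PARP1 ratio used an exact permutation test. Transcript lengths and shared bases came from the canonical transcripts of GENCODE 44, and promoters from RefSeq, read with Python 3.11.15. Fits were tested on simulated data. Replicates of each group differed by more than sampling noise.

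Members, lists, tests and alternatives were chosen with earlier results of these data known. Named genes were all members by role, the largest of each role per library, and up to 3 of each wider list. LIG4, RAD50 and ATM limits were described after their values were seen. Other settings tried were RLE factors, scaling by library size alone, omitting the filter, a mean count of at least 10, DESeq2 1.42.0, limma-voom (limma 3.58.1), unrounded counts, a replicate block, leaving out each library, all 18 libraries in one model, only the 12 libraries of the lines compared, other pseudocounts, wider lists and a 1.5-fold call. The depth per library, from 19685354 to 120993595 counts, sets the precision, and the reads carry no molecular identifiers. Some genes of the wider lists are counted but not reported here by name.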

Additional observations from a re-analysis of the deposited data

Results flagged for a closer look

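By the interaction test, the siFLI1 effect differed for 33 of the 38 members between TC-32 and A673, for 32 between TC-32 and TC-71 and for 33 between A673 and TC-71. Of all 19591 genes in that model, 62.1%, 53.6% and 51.7% differed in the same order. Interactions of 9 genes were chosen after their values were seen. All values here are differences of log2 fold changes from edgeR's interaction model, and those named had an adjusted p under 0.05 except where another value is given.

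TC-32 minus A673 was -2.82 for EXO1, -2.16 for BRCA1, -2.08 for FANCI and -0.74 for NBN. For end joining it was -1.32 for XRCC4, -1.10 for XRCC5 and -1.06 for XRCC6. SLFN11 and PARP1 differed less, by -0.43 and -0.36.

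TC-32 minus TC-71 was -1.84 for EXO1, -1.35 for BRCA1, -1.29 for FANCI, -1.39 for XRCC4, -0.87 for XRCC5 and -0.83 for XRCC6. NBN (-0.21, edgeR adjusted p = 0.0434) and PARP1 (-0.13, edgeR adjusted p = 0.0285) were near the threshold, and over the alternatives their adjusted p ran from 0.0122 to 0.185 and from 0.0133 to 0.445. SLFN11, at -0.14 (edgeR adjusted p = 0.0568), did not pass.

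A673 minus TC-71 was 0.98 for EXO1, 0.82 for BRCA1, 0.80 for FANCI and 0.53 for NBN. It was 0.29 for SLFN11, 0.23 for PARP1, 0.23 for XRCC5 and 0.23 for XRCC6. XRCC4, at -0.072 (edgeR adjusted p = 0.767), did not pass.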

How the results depend on the processing

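Over the alternatives run, the calls of SLFN11 and PARP1 within each line, the direction of each difference between homologous recombination and Fanconi genes and end joining and mismatch repair genes, and the direction of the SLFN11 to PARP1 ratio held. Small counts and differences near 0 changed, and the cause was not tested. In TC-32, RLE factors, library size alone and the model of all 18 libraries each gave 2 members higher and 1 end joining or mismatch repair member higher. FANCF there became 0.026 with library size alone and 0.016 in the model of all 18 libraries. In TC-71, the model of all 18 libraries gave 2 members higher and 1 homologous recombination or Fanconi member higher. In A673, library size alone gave 2 members higher and 0 of end joining and mismatch repair, with ATR at -0.085 and XRCC5 at -0.054. The difference of PARP1 between TC-32 and TC-71 no longer passed without a low-count filter (-0.085), with library size alone (-0.067), with RLE factors (-0.060) or with only the 12 libraries of the lines compared (-0.10).

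With wider lists the difference of medians moved to -0.74 in TC-71 and -0.32 in A673. Requiring 1.5-fold left 1 end joining or mismatch repair member lower and 0 higher in TC-71. In A673 it left 15 homologous recombination and Fanconi members lower and 0 higher, and 0 of end joining and mismatch repair lower and 0 higher. The same rule called 17.5% (TC-71) and 17.1% (A673) of all genes lower. For a list of 5 end joining and mismatch repair genes, 1 and 0 lower lie near those shares. No such share is given here for higher calls.

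Leaving out each library in turn gave 1 to 2 members higher in TC-32 and in TC-71, and 3 to 5 in A673. For end joining and mismatch repair members higher it gave 0 to 1 in TC-32 and 0 to 2 in A673, and for homologous recombination and Fanconi members higher 0 to 1 in TC-71. FANCF in TC-32 ran from -0.088 to 0.074, positive without siNeg replicate 3, and ATM in TC-71 from -0.0033, without siFLI1 replicate 3, to 0.11. In A673, ATR ran from -0.0087, without siFLI1 replicate 1, to 0.051, and XRCC6 from -0.032 to 0.0100, positive without siFLI1 replicate 2. The XRCC4 difference between A673 and TC-71 ran from -0.18 to 0.016, positive without TC-71 siNeg or siFLI1 replicate 3. Between TC-32 and TC-71, the PARP1 difference ran from -0.16 to -0.12 and lost its call without TC-71 siNeg replicate 2 or siFLI1 replicate 1. SLFN11 there ran from -0.20 to -0.10 and passed without TC-32 siNeg replicate 3 or siFLI1 replicate 1, or TC-71 siNeg replicate 3 or siFLI1 replicate 2. The difference of medians ran from -0.95 to -0.80 in TC-32, and the SLFN11 to PARP1 difference from -0.40 to -0.37.

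Replicate numbers did not pair the libraries: deviations of same-numbered siNeg and siFLI1 libraries correlated between -0.20 and 0.052. With a replicate block, 35, 34 and 30 members were lower in TC-32, TC-71 and A673, as without it. The block ended one call among the members examined, the NBN difference between TC-32 and TC-71 (-0.20, edgeR adjusted p = 0.0887), and the SLFN11 to PARP1 difference was -0.38 (exact sign permutation p = 0.0039).

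Low counts limit FANCF in TC-71, FANCB and BRCA2 in TC-32 siFLI1, and XRCC4 in TC-32 and TC-71. RAD50 is limited by its low level in TC-71 and by sharing 91% of its transcript bases with another gene on the same strand. The 3 libraries per group, the unknown strand setting and one counting tool for TC-71 alone limit the rest.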
